A study of Homo sapiens with 10 samples.

Results

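The mitochondrial respiratory chain is built from subunits of 2 genomes, and the data here concern the messenger RNAs of its nuclear-encoded subunits in extracellular vesicles (EVs) of prostate cancer cells. The members were all protein-coding genes of GENCODE release 29 whose symbols follow the naming of the structural subunits of complexes I to V, without the NDUFAF assembly factors. This gave 89 of the 94946 entries in the count table, with 37 in complex I, 4 in complex II, 10 in complex III, 19 in complex IV and 19 in complex V, the ATP synthase. NDUFA4 and its homologue NDUFA4L2 were placed in complex IV, where the NDUFA4 protein is found, and not in complex I after which they are named.

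The series holds 10 total RNA libraries of PC3, an established human prostate cancer line derived from a bone metastasis, with no genetic change or drug treatment given in the labels. The groups are the pellets of 3 centrifugation steps, which go by their labels 2.8K, 10K and 100K (no unit is given; marked EV in the plots), with 3 libraries each, and 1 library of whole PC3 cells. All groups share the cell line and a culture medium with fetal bovine serum. All samples come from 1 line, and no label tells whether the numbered sets were grown separately, so the spread behind the p-values may be technical only.

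Total counts were 10288246 to 14977955 in 2.8K, 7933251 to 10864958 in 10K, 5424964 to 8083438 in 100K and 28735081 in the cells. Libraries of 100K resembled each other most, with a biological coefficient of variation of 0.273 against 0.739 in 10K and 0.94 in 2.8K. The 6 markers of the epithelial line (KRT8, KRT18, KRT19, EPCAM, CDH1 and VIM) summed to 2462 to 3161 CPM (counts relative to a library total of 1e+06, scaled between libraries) in 2.8K, 1901 to 2529 in 10K, 912 to 1089 in 100K and 1763 in the cells, and the part of this difference in the results was not tested. KLK2 and KLK3, which define luminal prostate cells, had no count in any library. Blood and serum markers summed to at most 2.78 CPM, leukocyte markers to at most 3.58 and platelet markers to at most 2.24, with HBA1, HBA2, PTPRC, CD3E and PPBP at 0 in all libraries, while fibroblast markers summed to at most 27.5 CPM with DCN and LUM at 0.

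In the respiratory chain, complexes I and II pass electrons from NADH and succinate to ubiquinone, complex III passes them on to cytochrome c, and complex IV passes them to oxygen. Complexes I, III and IV pump protons, and complex V uses the resulting gradient to make ATP. Nuclear-encoded subunits are translated in the cytoplasm and imported into mitochondria, while a small core of subunits of complexes I, III, IV and V is encoded and translated inside the organelle. EV pellets collected at low speed are usually richer in large vesicles and those collected at high speed in small ones.

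The complex III gene UQCRH, on chromosome 1 at 46303631 to 46316776 on the plus strand of GRCh38, has a near-identical copy in UQCRHL, on chromosome 1 at 15807169 to 15809348 on the minus strand. The coding sequences of their main GENCODE transcripts, printed 5′ to 3′, differed at 4 of 276 bases (98.6% identical), which are shown in capitals because counts for the copies can only be read apart where they differ.
UQCRH: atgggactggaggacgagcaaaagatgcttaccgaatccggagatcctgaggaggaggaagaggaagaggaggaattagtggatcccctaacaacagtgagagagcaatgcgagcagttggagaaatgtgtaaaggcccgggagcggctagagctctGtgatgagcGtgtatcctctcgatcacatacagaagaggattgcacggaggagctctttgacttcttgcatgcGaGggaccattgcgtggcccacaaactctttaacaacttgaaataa
UQCRHL: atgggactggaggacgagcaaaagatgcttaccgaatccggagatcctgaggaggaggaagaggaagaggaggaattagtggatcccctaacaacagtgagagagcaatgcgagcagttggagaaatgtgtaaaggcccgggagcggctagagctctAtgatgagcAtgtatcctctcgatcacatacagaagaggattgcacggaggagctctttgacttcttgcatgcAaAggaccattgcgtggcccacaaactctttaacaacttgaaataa
The treatment of reads matching both copies is unknown, so the split between UQCRH and UQCRHL is uncertain. The ATP synthase c-subunit genes ATP5MC1, ATP5MC2 and ATP5MC3, which encode the same mature protein, were 71.7% to 77.4% identical. Counts in 149 pseudogene entries named after members came to 0.34% to 0.702% of the summed counts of members and these entries in a library. The search by name did not cover copies of the complex II genes or CYC1. For some members the copy weighed more. COX6A1P2 was at means of 19.5, 12.8 and 3.18 CPM in 2.8K, 10K and 100K, where COX6A1 was at 47.5, 30.1 and 8.28. UQCRFS1P1 was at 4.04, 6.18 and 16.8 CPM, where UQCRFS1 was at 56.4, 113 and 177.

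Of the 89 members, 76 had counts in all libraries and 5 had none in any. The 5 without a count were the muscle or testis forms COX6A2, COX7A1 and COX8C and the readthrough genes ATP5MF-PTCD1 and NDUFC2-KCTD14. Other restricted forms were near background: COX4I2, a form known from lung, had 47 counts in 2.8K library 2 and none elsewhere, COX6B2, a testis form, had 40 counts in 2.8K library 1 alone, and NDUFA4L2, a gene induced by hypoxia, had 20 counts in the cells, 1 and 17 in 10K libraries 2 and 3 and none elsewhere. COX7B2, another testis form, lay between 0 and 9.1 CPM in the pellets and at 2.1 in the cells. A count of 0 allows up to 3 counts, or 0.180 CPM in 2.8K library 2 and 0.551 in 100K library 2, the deepest and shallowest pellet libraries. In the test of the 9 EV libraries, 80 members passed the filter on low counts, and with the cells added, 84 did. The 9 left out of the first were the 5 without a count, COX4I2, COX6B2, NDUFA4L2 and ATP5MGL, the last of which had 56 counts in 2.8K library 2 and under 1 CPM elsewhere.

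Summed over all members, nuclear-encoded subunits held 0.826%, 1.01% and 1.00% in 2.8K, 0.969%, 1.12% and 1.09% in 10K and 0.779%, 0.740% and 0.704% of all counts in 100K. The cells stood at 0.761% (95% Wilson interval 0.758% to 0.764%, counting error only). All 100K libraries lay below all libraries of the other pellets. In bulk samples, fewer vesicles or cells of a kind and less of an RNA in each cannot be told apart.

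The mRNAs of the 13 mitochondrially encoded subunits behaved otherwise. They made up 7.83%, 3.09% and 2.73% of counts in 2.8K, 0.497%, 0.618% and 0.554% in 10K and 0.00339%, 0.00385% and 0.00538% in 100K, against 2.27% in the cells. The pellets did not overlap, and all 13 were lower in 100K than in 2.8K by edgeR's quasi-likelihood test.

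**Figure D1:**
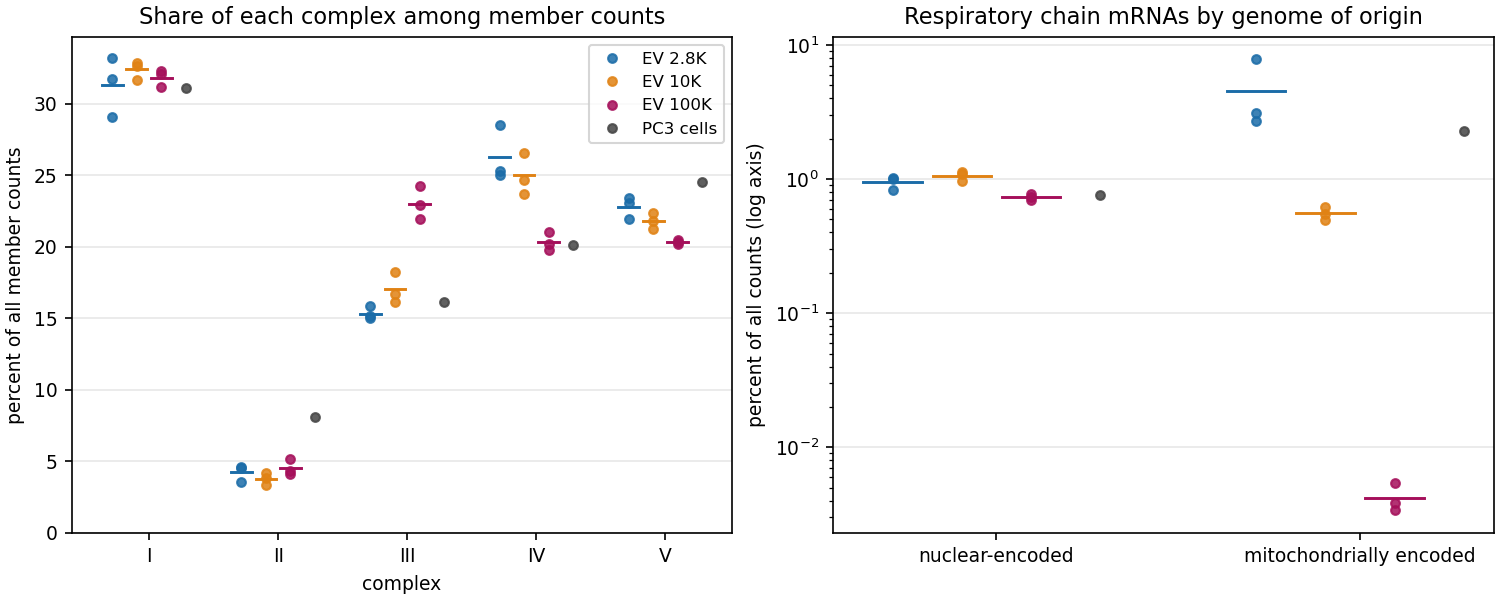
Left, the share of each complex among all counts of members (percent, linear axis), and right, the share of nuclear-encoded and mitochondrially encoded respiratory chain mRNAs among all counts (percent, log axis); points are libraries and bars are group means. Complex III stands at a mean of 23.0% of member counts in 100K, and the mitochondrially encoded mRNAs lie far apart between pellets while the nuclear-encoded sum stays between 0.704% and 1.12% in the pellets.

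Within the sum, the complexes held different parts of the member counts. Complex III held 15.3% ± 0.443 of member counts in 2.8K, 17.0% ± 1.11 in 10K and 23.0% ± 1.16 in 100K (SD, n = 3), against 16.2% in the cells. Complex IV, the oxidase, held 26.3% ± 1.93, 24.99% ± 1.46 and 20.3% ± 0.669, with 20.1% in the cells. Complex I stayed between 29.1% and 33.2% in every library, and complex V between 20.2% and 23.4% in the pellets with 24.5% in the cells. Complex II held 3.35% to 5.14% in the pellets and 8.08% in the cells, where SDHA was at 354 CPM against 181 to 284 in the pellets.

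A large part of the complex III share was a single mRNA. UQCRB, a small subunit next to the ubiquinone-binding site of cytochrome b, gave 3.85% of member counts in 2.8K, 7.76% in 10K and 15.3% in 100K, and 2.995% in the cells. It ranked 6 among the members in 2.8K, 2 in 10K and 1 in 100K, and 10 in the cells. Per kilobase of annotated exon, UQCRB was at 36.0, 87.6 and 125.9 CPM in the pellets from low to high speed, while NDUFS5 had the highest level per kilobase in all pellets and in the cells, at 619, 736, 430 and 253 CPM.

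To ask how members differ between pellets, each pair of pellets was compared with edgeR's quasi-likelihood test over all 15525 genes that passed the filter, with Benjamini-Hochberg adjusted p below 0.05 as the threshold. For any difference between the 3 pellets, 46 of 80 members passed, against 23.3% of all genes tested. 100K against 2.8K gave 12 members higher and 35 lower (background 12.0% and 13.8%, or 25.8% in either direction). The median log2 fold change of members was -0.82 against -0.06 for all genes. The libraries of both groups did not overlap for 15 members that were higher and 42 that were lower (background 23.9% and 20.8% of genes). For 100K against 10K, 35 members were lower and none was higher (background 7.23% and 3.70%), with medians of -0.94 and 0.01, and the groups did not overlap for 7 members that were higher and 48 that were lower (background 19.2% and 16.7%). At an unadjusted p below 0.05, 4 members were higher there, and DESeq2 called 2. 10K against 2.8K gave 8 members higher and none lower (background 4.15% and 2.22%), with medians of 0.12 and -0.01, and the groups did not overlap for 22 that were higher and 3 that were lower (background 11.7% and 9.70%). At an unadjusted p below 0.05, 3 members were lower, and DESeq2 called 0. These 3 comparisons share libraries, so their values are set side by side only.

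The 8 members higher in 10K than in 2.8K were NDUFC2, NDUFV3, COX7A2L, UQCRB, UQCRFS1, NDUFS6, ATP5F1A and NDUFB2. This count was 4 without 10K library 1 and 5 without 10K library 2. All 8 also passed as higher in 100K than in 2.8K, a comparison with the same 2.8K libraries.

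**Figure D2:**
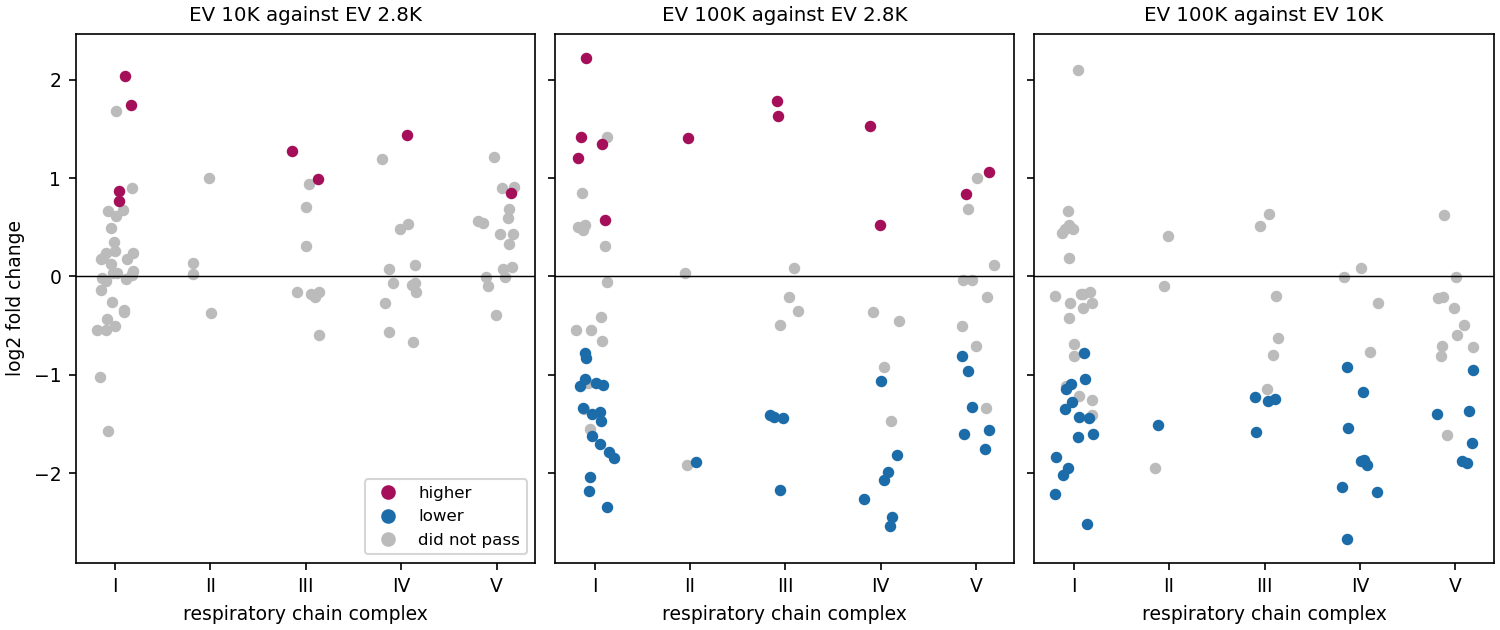
The log2 fold change of every tested member (80 points a panel, spread sideways at random) by complex for the 3 comparisons of pellets, coloured by the call of edgeR's test at an adjusted p below 0.05. In 100K against 2.8K each of the 5 complexes holds members on both sides, while against 10K all 35 members that passed are lower.

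Over all genes tested, 12.0% were higher and 13.8% lower in 100K than in 2.8K. Complex I, the NADH dehydrogenase, had 5 of its 36 tested members higher (13.9%) and 17 lower (47.2%). Among the subunits of its electron-input arm, NDUFV3, a small accessory subunit, was at 202.6, 183.5 and 196.5 CPM in 2.8K, 689, 514 and 760.3 in 10K and 556, 421 and 606 in 100K, with 86.0 in the cells. All 10K and 100K libraries were above all 2.8K libraries, and these 2 groups overlapped each other. Its log2 fold change against 2.8K was 1.74 ± 0.20 (SE) for 10K (edgeR adjusted p = 3.27e-05) and 1.42 ± 0.20 for 100K (3.78e-05). NDUFV1, the core subunit that binds NADH in the same arm, was at 126.9, 121.0 and 94.8 CPM in 2.8K, 87.4, 82.9 and 73.1 in 10K and 63.1, 73.3 and 66.1 in 100K. It was lower in 100K by a log2 fold change of -0.78 ± 0.23 (edgeR adjusted p = 0.0158), and missed the threshold without 2.8K library 2, 100K library 1 or 100K library 3 (adjusted p = 0.0719 to 0.0915). The ratio of NDUFV3 to NDUFV1 within a library was 1.52 to 2.07 in 2.8K, 6.20 to 10.4 in 10K, 5.75 to 9.17 in 100K and 0.936 in the cells.

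NDUFS6, another accessory subunit of the electron-input arm, was at 150.6, 136.8 and 143.7 CPM in 2.8K, 272, 298 and 225 in 10K and 466, 333 and 315 in 100K, so that the 3 groups did not overlap. Its log2 fold change was 1.35 ± 0.21 in 100K against 2.8K (edgeR adjusted p = 7.63e-05) and 0.87 ± 0.20 in 10K against 2.8K (0.014), where the call was lost without 10K library 1 or 2 (0.0501 to 0.0527). The membrane-arm subunit NDUFC2 went from 3.9 to 9.6 CPM in 2.8K to 24.2 to 33.0 in 100K, a log2 fold change of 2.22 ± 0.50 (edgeR adjusted p = 0.00269), and 16.3% of its exonic bases are shared with the readthrough gene NDUFC2-KCTD14, which had no count. For 10K, NDUFC2 lost its call without 10K library 1 or 2.8K library 2 (adjusted p up to 0.114). The call was also lost with only the 6 libraries of 10K and 2.8K in the fit. NDUFB2 rose from 62.5 to 76.8 CPM to 131 to 199, a log2 fold change of 1.21 ± 0.23 (edgeR adjusted p = 0.000538), and 35.1% of its exonic bases overlap genes on the opposite strand, whose reads may not be separated from its own. Its difference between 10K and 2.8K (log2 fold change 0.77, adjusted p = 0.0491) was lost in 12 of 17 alternatives, among them leaving out any library of 10K or 100K and library 1 or 2 of 2.8K (adjusted p up to 0.136). NDUFS1, the largest core subunit, was higher in 100K by 0.58 ± 0.20 (adjusted p = 0.0435), a call lost in 8 of 17 alternatives, including without any 100K library and without 2.8K library 1 or 2 (up to 0.184).

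On the other side of complex I, NDUFB7, an accessory subunit of the membrane arm, was at 399, 285 and 227 CPM in 2.8K, 202.6, 237 and 188.9 in 10K and 70.7, 67.2 and 65.1 in 100K, against 85.4 in the cells. The 3 100K libraries lay close together and below every library of the other pellets. The log2 fold change against 2.8K was -2.19 ± 0.23, or 4.55-fold lower (edgeR adjusted p = 1.33e-06). NDUFB4, also of the membrane arm, was at 20.4 to 36.6 CPM in 2.8K, 28.3 to 35.1 in 10K and 4.4 to 6.4 in 100K, a log2 fold change of -2.34 ± 0.44 against 2.8K and -2.51 ± 0.44 against 10K (edgeR adjusted p = 0.000517 and 0.000992). Among the core subunits, NDUFS7 fell with a log2 fold change of -1.85 ± 0.36 against 2.8K, although 49.1% of its exonic bases overlap genes on the opposite strand.

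Complex II oxidises succinate, and its 4 subunits split. SDHB, the iron-sulphur subunit, was at 128.3, 138.1 and 80.4 CPM in 2.8K, 69.1, 112.4 and 89.3 in 10K and 38.8, 37.3 and 18.9 in 100K. All 100K libraries were below all others, with a log2 fold change of -1.89 ± 0.31 against 2.8K (edgeR adjusted p = 0.000188). SDHC, a membrane anchor, moved the other way, from 23.8, 22.6 and 53.2 CPM in 2.8K through 62.1, 59.1 and 80.3 in 10K to 91.1, 82.7 and 94.8 in 100K, a log2 fold change of 1.41 ± 0.32 (edgeR adjusted p = 0.00295). SDHA, the flavoprotein that holds the succinate site, did not pass, with 181 to 258 CPM in 2.8K and 195 to 266 in 100K. SDHD, the other anchor, was at 2.8 to 28.1 and 2.2 to 5.6 CPM and did not pass (log2 fold change -1.92, adjusted p = 0.0813). The ratio of SDHC to SDHB was 0.164 to 0.662 in 2.8K, 0.526 to 0.900 in 10K, 2.22 to 5.01 in 100K and 0.584 in the cells.

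**Figure D3:**
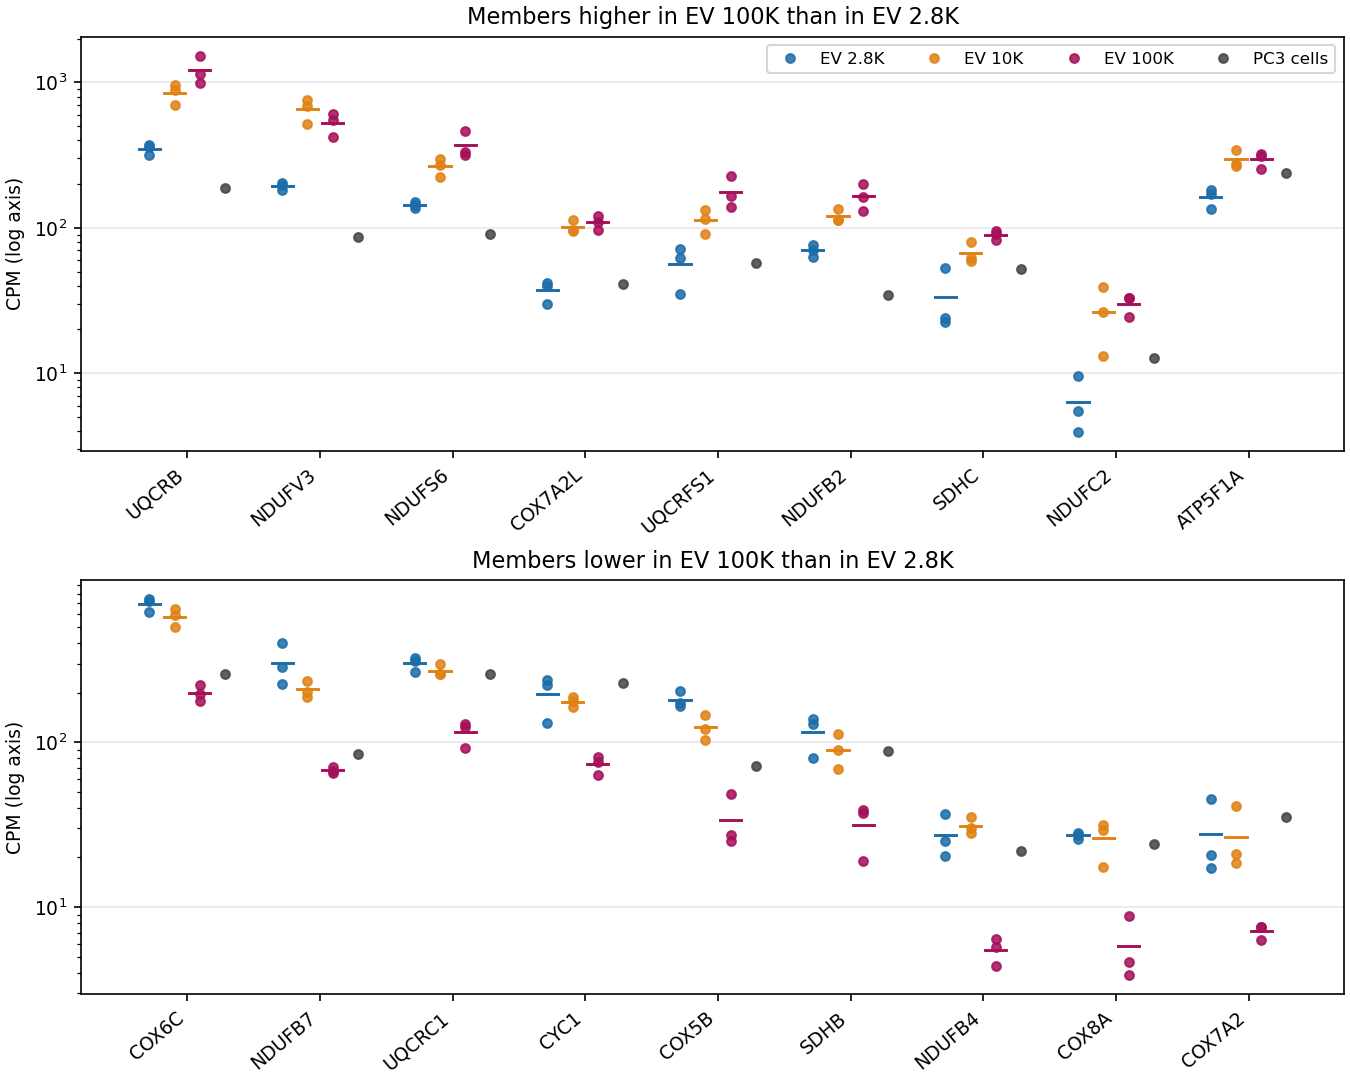
CPM (log axis) in each library for 9 members that were higher (top) and 9 that were lower (bottom) in 100K than in 2.8K; points are libraries, bars are means of 3 libraries, and the cells have 1 library. The 100K points of UQCRB, NDUFS6, NDUFB2, UQCRFS1 and SDHC lie above all 10K and 2.8K points except in NDUFB2, where 100K and 10K overlap, while those of all 9 lower members lie below both.

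In complex III, UQCRB was at 318, 358 and 372 CPM in 2.8K, 966, 886 and 700.4 in 10K and 1531, 997 and 1141 in 100K, against 188 in the cells. The 3 pellets did not overlap. The log2 fold change against 2.8K was 1.27 ± 0.20 for 10K (edgeR adjusted p = 0.000605) and 1.79 ± 0.20 for 100K (3.83e-06), while the step from 10K to 100K, at 0.52 ± 0.20, did not pass (0.116). UQCRFS1, the Rieske iron-sulphur protein that takes electrons from ubiquinol, was at 71.7, 62.3 and 35.2 CPM in 2.8K, 132.7, 115.3 and 91.2 in 10K and 226, 165.5 and 140.2 in 100K, again without overlap. Its log2 fold change was 1.63 ± 0.28 for 100K (edgeR adjusted p = 0.000239) and 0.99 ± 0.27 for 10K (0.038), and the 10K call was lost in 6 of 17 alternatives, including without 10K library 1 or 2, 2.8K library 2 or 3, or 100K library 2 (up to 0.149).

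No catalytic partner of UQCRFS1 passed as higher. CYC1, cytochrome c1, which receives the electrons of the Rieske protein, was at 131.5, 237.9 and 221.9 CPM in 2.8K, 177.7, 163.3 and 187.9 in 10K and 63.0, 81.4 and 76.4 in 100K (log2 fold change against 2.8K -1.44 ± 0.24, edgeR adjusted p = 0.00018). UQCRC1, a core subunit, fell with a log2 fold change of -1.41 ± 0.20 (edgeR adjusted p = 3.71e-05), and the small subunit UQCR10 with -2.18 ± 0.37 (0.000236), while the core subunit UQCRC2 was at 70.0 ± 13.7 and 55.7 ± 11.1 CPM (SD, n = 3) and did not pass. UQCRFS1 stood at 0.159 to 0.545 times the CPM of CYC1 in 2.8K, 0.485 to 0.747 times in 10K, 1.84 to 3.58 times in 100K and 0.252 times in the cells. UQCRH and UQCRHL did not pass in any comparison, with UQCRH at 33.4 to 49.7, 61.0 to 84.0 and 41.1 to 52.9 CPM.

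Complex IV had the lowest median of the 5 complexes in 100K against 2.8K, at -1.47 over 13 tested members. Of these, 7 were lower (53.85%) and 2 higher (15.4%), against 13.8% and 12.0% of all genes tested. COX5B, a nuclear subunit on the matrix side, was at 204.9, 174.1 and 165.3 CPM in 2.8K, 147.5, 120.2 and 102.6 in 10K and 27.6, 48.7 and 25.4 in 100K. Each pellet lay below the one before it without overlap, and 100K was 5.44-fold lower than 2.8K (log2 fold change -2.44 ± 0.28, edgeR adjusted p = 3.2e-06). COX6C, an abundant member, went from 743, 615 and 724 CPM through 499, 645 and 597 to 224, 179.3 and 195.8 (log2 fold change -1.82 ± 0.19, edgeR adjusted p = 1.35e-06). COX6A1 had the lowest log2 fold change of any member, at -2.54 ± 0.39, followed in complex IV by COX5B, COX8A at -2.26 and COX6B1 at -2.07. Reads of COX6A1 may not be separated from those of its copy COX6A1P2, and 34.5% of the exonic bases of COX8A are shared with a gene on the same strand. NDUFA4 was lower than in 10K, from 16.1 to 22.2 CPM to 3.1 to 3.2 (log2 fold change -2.67 ± 0.65, edgeR adjusted p = 0.0106), a call lost without any 1 100K library or without 10K library 2 (0.0568 to 0.066).

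The members of complex IV that rose were COX7A2L and COX4I1. COX7A2L, whose protein bridges complexes III and IV in supercomplexes, was at 30.1, 41.7 and 39.9 CPM in 2.8K, 113.5, 94.9 and 97.4 in 10K and 120.2, 97.2 and 109.9 in 100K, with 41.0 in the cells. 10K and 100K overlapped and both lay above 2.8K, with log2 fold changes of 1.44 ± 0.24 and 1.53 ± 0.24 (edgeR adjusted p = 0.000912 and 0.0001). COX7A2, the complex IV subunit it resembles, was at 17.2, 20.7 and 45.5 CPM in 2.8K, 21.0, 40.8 and 18.5 in 10K and 6.3, 7.5 and 7.5 in 100K. It fell in 100K with a log2 fold change of -1.99 ± 0.50 against 2.8K (edgeR adjusted p = 0.00616), or 0.0613 without 2.8K library 3. The ratio of COX7A2L to COX7A2 was 1.75, 2.02 and 0.878 in 2.8K, 5.40, 2.33 and 5.25 in 10K, 19.0, 12.9 and 14.6 in 100K and 1.17 in the cells. COX4I1, the common form of subunit 4, was higher by 0.52 ± 0.18 (edgeR adjusted p = 0.044), but missed the threshold in 10 of 17 alternatives, including without any 100K library, 10K library 1 or 2.8K library 1 or 3 (up to 0.206).

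In complex V, the catalytic head is made of alternating alpha and beta subunits. ATP5F1A, the alpha subunit, was at 135.9, 169.7 and 182.7 CPM in 2.8K, 266, 276 and 345 in 10K and 321, 252 and 313 in 100K (log2 fold change of 100K against 2.8K 0.84 ± 0.20, edgeR adjusted p = 0.00424). The 10K rise of 0.85 ± 0.20 (0.0151) was lost without 10K library 3 (0.0589 to 0.0639 in the 2 alternatives that lost it). ATP5F1B, the beta subunit, was at 387.5, 400.4 and 329 CPM in 2.8K, 358, 359 and 404 in 10K and 213, 190.3 and 179.9 in 100K, so that the first 2 pellets overlapped and the last lay below them (log2 fold change -0.96 ± 0.18, edgeR adjusted p = 0.000627). The ratio of alpha to beta was 0.351 to 0.555 in 2.8K, 0.743 to 0.854 in 10K, 1.32 to 1.74 in 100K and 0.524 in the cells. ATP5MPL, a small membrane subunit, was higher in 100K by 1.06 ± 0.38 (adjusted p = 0.0471), and lost the call without any 1 100K library or 2.8K library 1 (up to 0.141). ATP5ME, ATP5MF and ATP5F1C were lower, with log2 fold changes of -1.76, -1.60 and -1.56 against 2.8K. For ATP5ME, 61.6% of the exonic bases overlap a gene on the opposite strand, whose reads may not be separated from its own. The calls of ATP5MF and ATP5F1C were lost when 100K library 1 or 2 was left out, and also without 2.8K library 2 for ATP5MF and 100K library 3 for ATP5F1C (adjusted p up to 0.156). None of the c-subunit genes ATP5MC1, ATP5MC2 and ATP5MC3, nor the stalk subunits ATP5PF and ATP5PO, passed.

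Transcript length, which the selection of members did not use, differed between the members that rose and those that fell. In 100K against 2.8K, the main annotated transcript had a median of 3265.5 bases in the 12 higher members and 804 in the 35 lower ones, while the coding parts had medians of 364.5 and 411 bases. The 3′ untranslated parts, counted with the stop codon, had medians of 2057 and 156 bases. UQCRB has a coding part of 333 bases in a transcript of 5575, NDUFV3 324 in 4676, COX7A2L 342 in 3056 and SDHC 507 in 13566, against 411 in 531 for NDUFB7 and 327 in 572 for COX6A1. Where annotated transcripts tied in rank and coding length, the longest was taken as the main one. Which isoforms were present was not measured in these counts per gene.

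Of the 38 members with a transcript under 1000 bases, 24 were lower and 2 higher, with a median log2 fold change of -1.34, while 502 other protein-coding genes of that length had a median of -0.66, with 29.5% lower. Of the 22 members between 1000 and 2000 bases, 9 were lower (40.9%) and 2 higher (9.09%), with a median of -0.70, against 23.0% lower, 7.03% higher and a median of -0.52 among 2205 other genes of that length. Of the 20 members over 2000 bases, 2 were lower and 8 higher (40% of them, median 0.31), against 14.5% of 9201 other genes higher and a median of -0.00. Across the 80 members, Spearman's rho between transcript length and log2 fold change was 0.56, and 0.235 across 11908 other protein-coding genes. These are descriptions across genes, which share libraries and are not independent replicates. For 10K against 2.8K rho was 0.37 in members and -0.02 in the other genes, and for 100K against 10K 0.507 and 0.344. For GC content of the transcript, rho with the log2 fold change of 100K against 2.8K was -0.317 in members and -0.192 in the other genes. The part of length or GC content in the differences was not tested. With members left out that share over 10% of their exonic bases with another gene, rho of transcript length for 100K against 2.8K was 0.515 across 49.

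**Figure D4:**
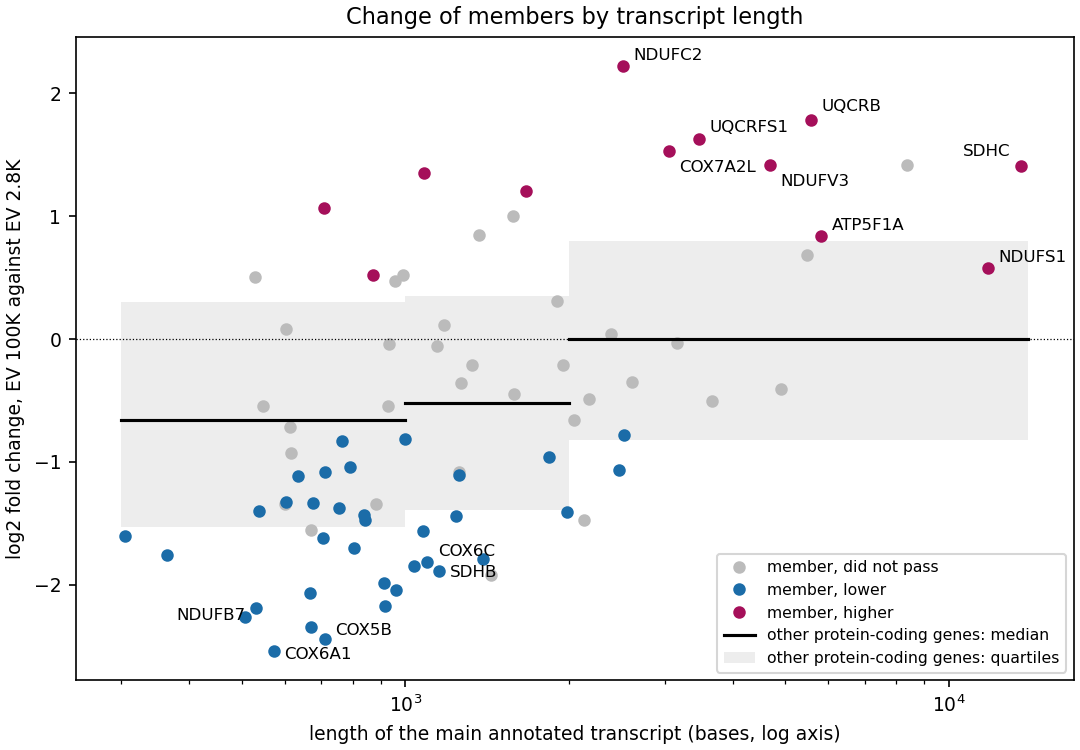
The log2 fold change of each tested member in 100K against 2.8K over the length of its main annotated transcript (bases, log axis), coloured by call; black lines and grey bands are the median and quartiles of other protein-coding genes under 1000, from 1000 to 2000 and over 2000 bases. Members of short transcripts lie mostly below the line of other genes (medians -1.34 and -0.66) and 8 of 20 members over 2000 bases are higher.

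Genes that work with the chain were looked at through lists, which were chosen with earlier results known and are given as counts beside the same background of 12.0% higher and 13.8% lower in 100K against 2.8K. Of 50 tested assembly factors, 8 were higher and 10 lower (median -0.32). Among the higher ones were CMC2, with a log2 fold change of 3.04, and NDUFAF8, at 2.36, an assembly factor of complex I. COX17, the copper chaperone of complex IV, was among the lower ones at -1.92. Of 77 mitochondrial ribosomal proteins, 7 were higher and 24 lower (median -0.73). Of 13 citric acid cycle enzymes, none was higher and 6 were lower, MDH2 most at -2.25. Of 9 regulators of mitochondrial genes, PPARGC1B, TFAM and TFB2M were higher and POLRMT, the mitochondrial RNA polymerase, was lower.

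The partners of the chain that the symbol rule leaves out also split. NDUFAB1, the acyl carrier protein that is also a complex I subunit, was at means of 146, 406 and 709 CPM in 2.8K, 10K and 100K and 102.5 in the cells, with a log2 fold change of 2.25 ± 0.21 in 100K against 2.8K (edgeR adjusted p = 4.45e-07). CYCS, cytochrome c, fell from 188 to 81.7 CPM (log2 fold change -1.23), and ATP5IF1, the inhibitor of the ATP synthase, from 249 to 72.2 (log2 fold change -1.80).

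Against the whole cells, which have no replicate and are assumed to vary like the pellets, 84 members were tested among 22370 genes. 2.8K had 8 members higher and none lower (background 1.54% and 0.693%; 1 lower at an unadjusted p below 0.05 and 0 by DESeq2). 10K had 11 higher and none lower (background 2.82% and 1.60%; 0 lower at an unadjusted p below 0.05 and 0 by DESeq2). 100K had 9 higher and 13 lower (background 4.59% and 5.46%). Without TMM scaling the 100K counts were 5 and 21, and with RLE size factors 10 and 7. The 13 fell to 7 without 100K library 1 and to 6 without 100K library 3, and the 11 of 10K rose to 17 without 2.8K library 1. These comparisons share the cell library.

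Among the members that passed, UQCRB and NDUFV3 stood furthest above the cells in 10K and 100K. UQCRB was 6.50-fold higher in 100K (log2 fold change 2.7 ± 0.36, edgeR adjusted p = 5.94e-12) and 4.52-fold in 10K, while its difference of 0.89 ± 0.32 in 2.8K did not pass (0.142). NDUFV3 was above the cells in all 3 pellets, by log2 fold changes of 1.18, 2.93 and 2.62 from 2.8K to 100K, the first of which did not pass without TMM scaling (adjusted p = 0.122). NDUFB2 and NDUFS6 followed in 100K at 2.25 and 2.04. In 2.8K the highest that passed were NDUFB7 at 1.83, ATP5F1E, the epsilon subunit, at 1.63, ATP5ME at 1.60 and COX6C at 1.42. Of these, ATP5ME did not pass without TMM scaling (edgeR adjusted p = 0.108). NDUFB7 and COX6C were at -0.34 and -0.37 in 100K, where neither passed.

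Of the members that passed, those furthest below the cells in 100K were COX7A2 at -2.29 ± 0.64, COX8A at -2.07 ± 0.68, NDUFB4 at -1.99 ± 0.66 and CYC1 at -1.64 ± 0.32 (edgeR adjusted p = 0.00533, 0.0254, 0.0286 and 1.37e-05). COX8A lost its call without 100K library 1 or 3 (adjusted p up to 0.137) and NDUFB4 without any 1 100K library (up to 0.12). In 2.8K and 10K these 4 lay between -0.39 and 0.52 and none passed.

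**Figure D5:**
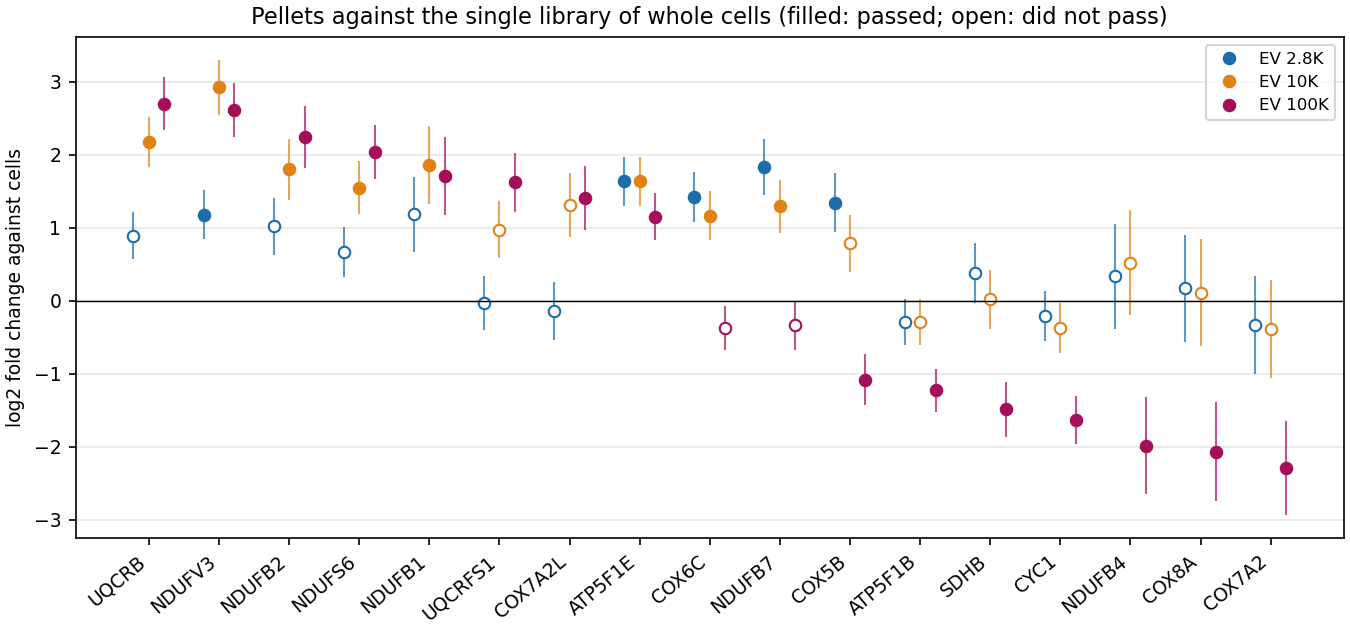
The log2 fold change of 17 members in each pellet against the single cell library, with standard errors from the fit as bars; filled points passed at an edgeR adjusted p below 0.05 and open points did not. UQCRB reaches 2.7 and COX7A2 -2.29 in 100K, while COX6C and NDUFB7 are above the cells in 2.8K and 10K and did not pass in 100K.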

How the data were processed

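Total RNA was extracted with Trizol and sequenced with the SMARTer Stranded Total RNA-Seq kit for low input, per the labels' protocols. The authors worked on GRCh38, and the submitters' processing notes name featureCounts 1.6.3, STAR 2.6.1d, cutadapt 2.7 and bcl2fastq 2.19.1.403. Not given in the sources used here are its strand setting, annotation and rule for multiple mapping. The deposited values are raw counts per gene, whole numbers without normalization. Gene types, positions and transcript lengths came from GENCODE release 29, joined by identifier. The main transcript was the protein-coding one with the best APPRIS rank (principal isoform), then in the basic set, then with the longest coding part. Remaining ties went to the longest transcript. The 49372 catalogue entries were not placed, so overlap with them is unknown.

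Groups were taken from the titles. Counts were tested with edgeR 4.0.16 (R 4.3.3; filterByExpr with a minimum count of 10, TMM, robust quasi-likelihood F-test; Benjamini-Hochberg over all genes, threshold 0.05), on the 9 EV libraries for pellets (6 residual degrees of freedom) and on all 10 against cells. CPM used TMM factors of all 10 libraries. Zero counts allow up to 3 counts; intervals and floors cover counting error only. Alternatives were RLE factors, no TMM, no filter, no mitochondrial genes, other sets of libraries, the set number as a block, DESeq2 1.42.0 and leaving out each library; length classes and the removal of overlapping members were chosen after seeing the data. Members and lists were chosen with earlier results of these data known.

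Named genes are core subunits and restricted forms fixed by name, the 2 highest and 2 lowest of each complex that passed between pellets, the 4 highest and 4 lowest of those that passed against cells, and all members where at most 5 moved one way. UQCRC2, COX6B1 and the genes named from other lists were chosen after their values were seen. NDUFV1 and NDUFV3, SDHC and SDHB, UQCRFS1 and CYC1, ATP5F1A and ATP5F1B, and COX7A2L and COX7A2 were paired after their values were seen. In a simulation of 100K against 2.8K, only 200 genes were changed, while 25.8% of genes passed in the real comparison. The recovery in the simulation may thus differ from that in the data. Over 14438 genes, the test called 5 of 92 true 2-fold and 44 of 96 true 4-fold changes, and 3 unchanged genes. A few members' values are left out and not reported here.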

Additional observations from a re-analysis of the deposited data

How the results depend on the processing

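Of 92 differences of named members that passed, none changed direction in any alternative run; 85 of 828 values missed the threshold with 1 library left out and 34 of 634 in other settings, the most without TMM (16 of 92). The median of all genes moved by -0.113 and -0.138 without TMM for 10K and 100K against 2.8K, by -0.197, -0.326 and -0.361 for 2.8K, 10K and 100K against the cells, and by 0.113 and 0.15 with RLE factors for 2.8K and 100K against the cells. The test called 5 of 92 simulated 2-fold changes. These were placed in genes drawn at random from all genes tested, so recovery among members was not measured. A member that did not pass is not shown to be level.

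Set numbers paired the samples weakly at most. Deviations of same-numbered libraries correlated at -0.00907 to 0.0481 over 9 pairs, and those of differently numbered ones at -0.0363 to 0.0299 over 18. Between 100K and 10K, same-numbered pairs were at 0.0248 to 0.0477 and the others at most at 0.0048. Between 10K and 2.8K they were at 0.0309 to 0.0385 and the others at most at 0.00771. With the set number as a replicate block, members higher and lower were 9 and 0 for 10K against 2.8K, 13 and 37 for 100K against 2.8K and 0 and 34 for 100K against 10K, and 50 passed for any difference; NDUFB2 in 10K against 2.8K (log2 fold change 0.76) lost its call.

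With only the 6 libraries compared, 5 members were higher in 10K than in 2.8K and 1 in 100K than in 10K, where DESeq2 gave 2; the cause was not tested. Against the cells without TMM, 3, 7 and 5 members were higher in 2.8K, 10K and 100K and 21 lower in 100K, where RLE factors gave 7. Leaving out members that share over 10% of their exonic bases with another gene left fewer to test. In 100K against 2.8K, 22 of 49 were lower (44.9%, against 43.75% of all members and 13.8% of all genes). In 100K against 10K, 23 of 49 were lower (46.9%, against 43.75% and 7.23%). In 2.8K against the cells, 5 of 52 were higher (9.6%, against 9.5% and 1.54%). As a share of nuclear protein-coding counts, members summed to 1.105%, 1.208%, 0.8624% and 0.8167% in 2.8K, 10K, 100K and cells, and in the cells to 0.7834% of counts without mitochondrial genes.

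With 1 library left out, members higher and lower ranged from 4 to 8 and 0 for 10K against 2.8K, 9 to 12 and 28 to 38 for 100K against 2.8K, and 0 to 1 and 27 to 41 for 100K against 10K; 35 to 52 passed for any difference. Against the cells, 6 to 10 were higher in 2.8K, 10 to 17 in 10K and 7 to 11 in 100K, and 6 to 14 lower in 100K. The summed share ranged from 0.9139% to 1.006%, 1.029% to 1.106% and 0.7222% to 0.7594% in 2.8K, 10K and 100K.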
